A study of Homo sapiens with 4 samples.

Results

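FOXA2 sites were examined at the loci of 6 receptor tyrosine kinase genes (*EGFR*, *MET*, *IGF1R*, *AXL*, *INSR* and *FGFR2*) and of *VEGFC*, a gene for a secreted growth factor, in PC3 cells. A peak was assigned to a locus when its summit lay in a fixed hg19 window holding the gene and about 50 kb on each side. The 7 windows together covered 1840 kb and held 23 of the 21308 vehicle peaks and 16 of the 14846 GSK2879552 peaks. FOXA2 was profiled by chromatin immunoprecipitation and sequencing (ChIP-seq) in PC3, an androgen-independent human prostate cancer line, after vehicle or after 50 µM GSK2879552 for 4 hours, both in medium with 5% charcoal-stripped serum. GSK2879552 inhibits LSD1 (KDM1A), a histone demethylase. Each group is 1 peak list from 2 sequencing lanes labelled as technical replicates, so no spread between cultures could be measured and no p-value is given. How long vehicle was given is not stated separately.

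Receptor tyrosine kinases are membrane proteins that bind a growth factor outside the cell and pass the signal on by phosphorylating tyrosines inside it, largely through the RAS-MAPK and PI3K-AKT pathways. EGFR binds EGF and related ligands, MET binds hepatocyte growth factor, and IGF1R and INSR are close relatives that bind the insulin-like growth factors and insulin. AXL binds GAS6, FGFR2 binds fibroblast growth factors, and VEGFC acts on the endothelial receptors FLT4 and KDR and promotes growth of lymphatic vessels. FOXA2 is a forkhead transcription factor that can bind compact chromatin, and most sites of such factors lie in introns and between genes rather than at promoters. Binding near a gene does not show that the gene is regulated, and no expression was measured here.

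The 5 loci with any FOXA2 peak each had fewer peaks after GSK2879552, by 3 at *MET* and by 1 elsewhere. The whole list also shrank, from 6.84 to 4.77 peaks per Mb, beside 12.5 to 8.70 over the 7 windows. The lower counts are therefore not a result about these genes. *EGFR* (chr7, 55.03 to 55.33 Mb) held 6 vehicle and 5 GSK2879552 peaks. *MET* (chr7, 116.26 to 116.49 Mb) was the most densely occupied, with 8 vehicle and 5 GSK2879552 peaks in 230 kb. *IGF1R* (chr15, 99.14 to 99.56 Mb) held 4 and 3, *INSR* (chr19, 7.06 to 7.35 Mb) 2 and 1, and *VEGFC* (chr4, 177.55 to 177.77 Mb) 3 and 2. *AXL* (chr19, 41.67 to 41.82 Mb) and *FGFR2* (chr10, 123.18 to 123.41 Mb) held none in either list. Over the 7 windows the density was 12.5 vehicle peaks per Mb, and 6.84 over all positions up to the last peak of each chromosome or contig. In windows of the same kind at 30 other receptor and ligand loci, described last, it was 8.29. The whole-list value includes sequence far from any gene and sequence that cannot be mapped. Among the 7 windows the vehicle density ranged from 0 at *AXL* and *FGFR2* to 34.8 at *MET*. The genes were chosen with earlier results of these data known, so the higher density is not a result about them.

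Gene ends were placed from the windows, because no hg19 annotation was used here. Each window exceeded the RefSeq gene length plus 100 kb by 3.8 to 10.6 kb (lengths from GRCh38.p14). Each flank was taken to be at least 50 kb, which was not checked against hg19 gene positions. Under that assumption a distance from the gene start is known to within that excess, and all placements below rest on it. Of the 25 sites in either list, 18 lay within a gene, 2 at a gene start to within this error, 3 in an upstream flank and 2 in a downstream flank. These counts were not set against the share of window length that is gene, so they show no preference for genes. Only *IGF1R*, *INSR* and *AXL* have another protein-coding RefSeq gene within 50 kb, namely *PGPEP1L*, *ZNF557*, and a group of 4 that includes *CYP2S1* and *HNRNPUL1*. No exon or intron could be assigned.

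**Figure D1:**
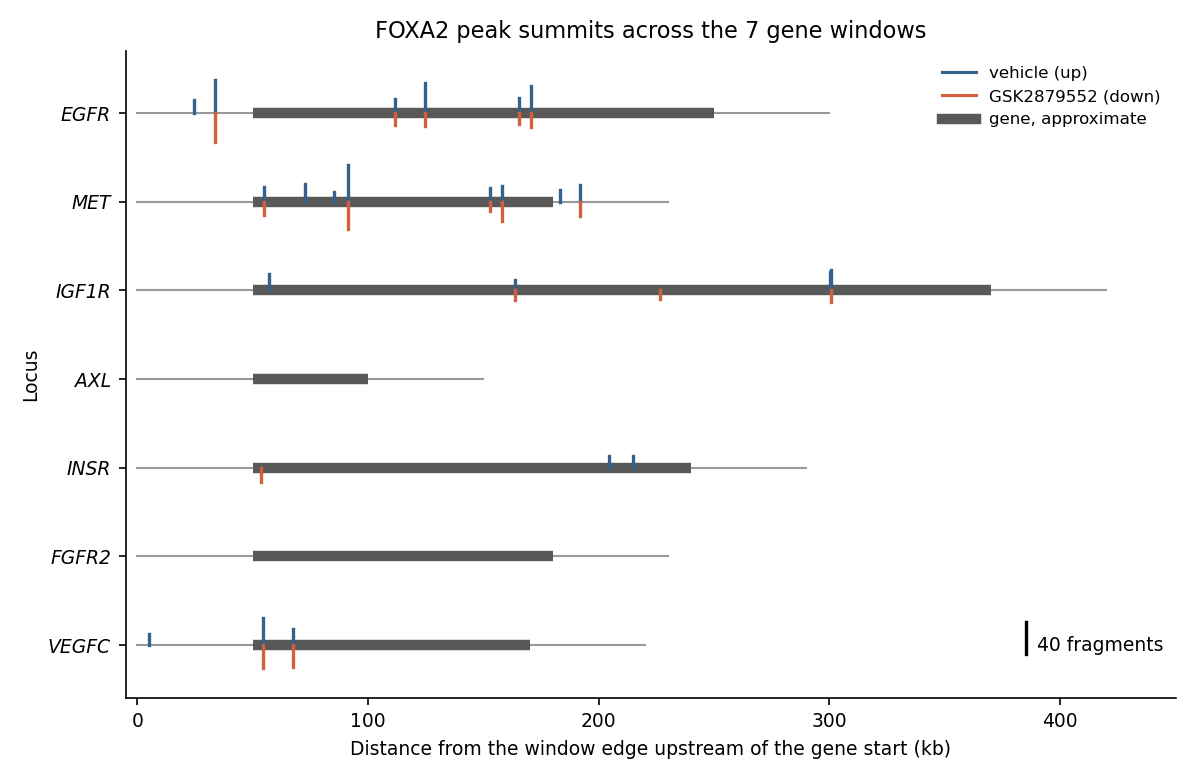
Position of each FOXA2 summit along the 7 windows, in kb from the window edge upstream of the gene start (x axis), with 1 row per locus (y axis). Line heights are fragments at the summit in vehicle (up) and GSK2879552 (down), with a 40-fragment scale bar, and thick bars are the approximate genes. *AXL* and *FGFR2* are empty, and most sites of *EGFR*, *MET* and *IGF1R* lie within the gene.

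A site at a gene start, within the error of the placement, was found for *VEGFC*, in both lists, and for *INSR*, in the GSK2879552 list alone. The 250 bases before the start of these genes are shown with those before an internal start of *AXL* and of *FGFR2*, the loci with no peak, chosen because each holds a match. The sequences are RefSeq's, on GRCh38.p14, and are written 5′ to 3′ along the gene. They were searched on both strands for 4 words of the forkhead type, which are TGTTTAC and its variant TATTTAC, as well as TGTTTGC together with TATTTGC. The words cannot start at the same base of a strand. Capitals mark a match. GRCh38.p14 positions cannot be set against the hg19 peaks, so whether a peak covers these bases is not known.
VEGFC (chr4:176792923-176793172, minus strand): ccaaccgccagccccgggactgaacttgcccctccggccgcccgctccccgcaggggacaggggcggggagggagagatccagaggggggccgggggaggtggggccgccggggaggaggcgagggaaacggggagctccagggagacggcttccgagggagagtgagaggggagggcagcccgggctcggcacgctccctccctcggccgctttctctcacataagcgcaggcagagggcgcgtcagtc
INSR (chr19:7294415-7294664, minus strand): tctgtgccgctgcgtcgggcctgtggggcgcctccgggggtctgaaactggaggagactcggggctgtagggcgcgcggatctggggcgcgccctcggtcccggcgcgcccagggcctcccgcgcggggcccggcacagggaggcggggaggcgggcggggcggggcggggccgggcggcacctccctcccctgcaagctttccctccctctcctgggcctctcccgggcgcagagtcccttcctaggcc
AXL, internal start (chr19:41226505-41226754, plus strand): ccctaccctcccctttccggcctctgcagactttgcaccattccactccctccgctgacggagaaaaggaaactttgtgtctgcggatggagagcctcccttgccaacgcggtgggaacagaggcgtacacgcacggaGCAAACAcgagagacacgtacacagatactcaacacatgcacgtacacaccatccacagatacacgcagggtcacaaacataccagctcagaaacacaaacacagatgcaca
FGFR2, internal start (chr10:121596646-121596895, minus strand): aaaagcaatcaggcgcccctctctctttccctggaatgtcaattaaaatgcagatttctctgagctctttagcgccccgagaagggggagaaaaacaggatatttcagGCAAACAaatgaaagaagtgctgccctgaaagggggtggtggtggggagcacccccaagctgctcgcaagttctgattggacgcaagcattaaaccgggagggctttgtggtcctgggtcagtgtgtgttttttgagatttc

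The *VEGFC* and *INSR* stretches, 74.0% and 78.4% G or C, held none of the words. The *AXL* and *FGFR2* stretches, with 54.4% and 50.0% G or C, each held GCAAACA, the reverse complement of TGTTTGC. It began 112 and 142 bases before the start. The first listed starts of *AXL* and *FGFR2*, with 64.4% and 78.4% G or C, held none of the words. The contrast with *VEGFC* and *INSR* thus comes from the choice of start. RefSeq lists 13 starts for the 7 genes, and 3 of them held a word, the remaining one also in *FGFR2*. Among all 35116 RefSeq starts, 10.6% held one. A match is a description of letters and not a binding site.

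*EGFR* encodes the receptor for EGF, TGF-alpha and amphiregulin. Its sites fell into 2 upstream of the gene and 4 within it. Numbered along the chromosome, site 2 (chr7:55063702-55064031, 16.1 to 23.5 kb upstream of the gene start) had the most fragments of this locus in both lists. It had 41 fragments in vehicle and 36 in GSK2879552, where fragments are the sequenced pieces of DNA covering the summit, computed from the authors' fold and −log10 p. The ratio, scaled by the libraries' background floors, was 0.876 (95% interval 0.544 to 1.41, counting error only, as for all ratios below). Both summits were 1 bp apart. Where an interval holds 1, the fragment numbers of these libraries are not shown to differ beyond counting error.

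The lowest ratios at *EGFR* were those of 2 sites inside the gene. Site 4 (chr7:55154584-55154907, 67.4 to 74.8 kb into the gene) had 37 fragments in vehicle and 16 in GSK2879552, a ratio of 0.432 (0.224 to 0.795). Only 0.990% of the 13200 pairs of shared peaks in the whole lists had a lower ratio. Site 6 (chr7:55200597-55200857, 113.3 to 120.7 kb into the gene) had 34 and 17, a ratio of 0.499 (0.261 to 0.918). These were the only 2 of the 14 shared sites at the loci with an interval entirely below 1. Of all pairs, 8.24% had such an interval. Fragments summed over all 13200 pairs gave a ratio of 0.798. The interval of site 6 holds that value, so site 6 is not shown to fall more than the lists as a whole. The interval of site 4, picked from 14 sites, ends just below it. Sites 2, 4 and 6 had similar vehicle values. The intervals of sites 2 and 4 overlap, which does not test a difference, and whether the sites differ in response was not tested.

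Both remaining shared *EGFR* sites were weaker in vehicle. Site 3 (chr7:55141603-55142013) had 18 fragments in vehicle and 15 in GSK2879552, a ratio of 0.832 (0.390 to 1.75). Site 5 (chr7:55195301-55195569), 5.32 kb before site 6, had 19 and 13, a ratio of 0.683 (0.310 to 1.46). Both intervals hold 1. Site 1 (chr7:55054480-55054699, 17 fragments, 25.4 to 32.8 kb upstream of the gene start) was called in vehicle alone. Its closest summit in the GSK2879552 list, 9258 bp away, was that of site 2. Summed over the 5 shared *EGFR* sites, fragments numbered 149 in vehicle and 97 in GSK2879552, a ratio of 0.650 (0.498 to 0.845). The summed ratio over all 13200 pairs was 0.798, which lies inside that interval.

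*MET* encodes the receptor for hepatocyte growth factor, which drives scattering and invasion of epithelial cells. Its strongest site, site 4 (chr7:116351123-116351481, 37.5 to 41.3 kb into the gene), was the strongest of all sites at the loci in vehicle. It had 46 fragments in vehicle and 34 in GSK2879552, a ratio of 0.738 (0.459 to 1.17). It ranked 1553 of 21308 by the authors' −log10 p in the vehicle list and 1783 of 14846 in the GSK2879552 list, which are lists of different length. The interval holds 1.

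A pair of *MET* sites 5.24 kb apart had opposite directions. Site 5 (chr7:116412580-116412898) had 17 fragments in vehicle and 11 in GSK2879552, a ratio of 0.646 (0.273 to 1.46). Site 6 (chr7:116417767-116418279) had 20 and 24, a ratio of 1.198 (0.634 to 2.29), and only 5.56% of all pairs had a higher ratio. Neither site was shown to differ between the libraries beyond counting error. The intervals of sites 5 and 6 overlap widely, and the difference between their ratios was not tested. The interval called at site 6 was nonetheless shorter after GSK2879552, 301 bp against 513 bp, with the summit at the same base.

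The site nearest the *MET* start, site 1 (chr7:116315030-116315229, 1.3 to 5.1 kb into the gene), had 19 fragments in vehicle and 16 in GSK2879552, a ratio of 0.840 (0.404 to 1.73). Site 8 (chr7:116451729-116451967), in the downstream flank, had 21 and 18, a ratio of 0.855 (0.430 to 1.69). Both intervals hold 1. Of the 8 vehicle sites of *MET*, 3 had no GSK2879552 counterpart, a share near the 38.0% of all vehicle peaks. These were site 2 (chr7:116332364-116332913) with 22 fragments, site 3 (chr7:116345229-116345453) with 12 and site 7 (chr7:116442999-116443184) with 15. Site 2 was the widest peak of the loci, 550 bp wide, with the closest GSK2879552 summit at a distance of 17416 bp. The summed ratio over the 5 shared *MET* sites was 0.836 (0.637 to 1.10).

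*IGF1R* encodes the receptor for insulin-like growth factors, and it had the longest window, 420 kb. The site nearest its start, site 1 (chr15:99196794-99197070, 2.9 to 6.9 kb into the gene), had 21 fragments in vehicle and no peak after GSK2879552, where the closest summit was at a distance of 106682 bp. Deeper in the gene, sites 4 and 5 lay 0.46 kb apart and differed in their call. Site 4 (chr15:99440102-99440353) had 23 fragments and was called in vehicle alone. Site 5 (chr15:99440563-99440826) had 26 and 14, a ratio of 0.537 (0.259 to 1.07). In vehicle these neighbours were of nearly equal height.

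The remaining *IGF1R* sites were weak. Site 2 (chr15:99303531-99303710) had 13 fragments in vehicle and 12 in GSK2879552, a ratio of 0.921 (0.384 to 2.19). Site 3 (chr15:99366439-99366606) was called in GSK2879552 alone, with 10 fragments over the lowest background of that library and the shortest interval in its list, 168 bp. The lowest number called anywhere in either list was 7.

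*INSR* encodes the insulin receptor, and no site of it was shared. Of its 2 vehicle peaks 0% were overlapped (exact binomial interval 0 to 84.2), against 62.0% of all vehicle peaks. For its 1 GSK2879552 peak the interval was 0 to 97.5, against 89.2% of all GSK2879552 peaks. Each interval holds the share over its list, so *INSR* is not shown to differ from the lists as a whole. Vehicle alone had site 1 (chr19:7135169-7135343, 15 fragments) and site 2 (chr19:7145583-7145759, 14 fragments), 10.39 kb apart in the part of the gene far from its start. GSK2879552 alone had site 3 (chr19:7296236-7296466, 18 fragments), which lay between 4.2 kb upstream and 3.6 kb downstream of the gene start. Its distance from the closest vehicle summit was 150701 bp. This was the stronger of the 2 peaks at the loci found only after GSK2879552, with a fold enrichment of 6.20 over a local background of 2.07 fragments. Vehicle peaks at a background within 10% of that were called with as few as 10 fragments. By the same measure, GSK2879552 peaks were called with as few as 7 to 10 at backgrounds like those of the 9 vehicle-only sites. For a site called in 1 list alone, the background of the other list at that place is not known.

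*VEGFC* encodes a ligand, and both of its stronger sites were called in both lists. Site 2 (chr4:177715367-177715702), between 6.1 kb upstream and 4.5 kb downstream of the gene start, had 33 fragments in vehicle and 29 in GSK2879552, a ratio of 0.877 (0.514 to 1.49). Site 1 (chr4:177702251-177702561, 7.0 to 17.6 kb into the gene) had 20 and 27, a ratio of 1.35 (0.728 to 2.53), the highest of the 14 shared sites. Only 2.45% of all pairs had a higher ratio, but its interval holds 1. Site 3 (chr4:177764951-177765137, 45.1 to 55.7 kb upstream) had 14 fragments and was called in vehicle alone. The summed ratio over both shared sites was 1.05 (0.711 to 1.57). This interval holds the 0.798 of all pairs, so *VEGFC* is not shown to differ from the lists as a whole. It overlaps that of *EGFR* (0.498 to 0.845), but overlap of intervals does not test a difference. The difference between *VEGFC* and *EGFR* was not tested.

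**Figure D2:**
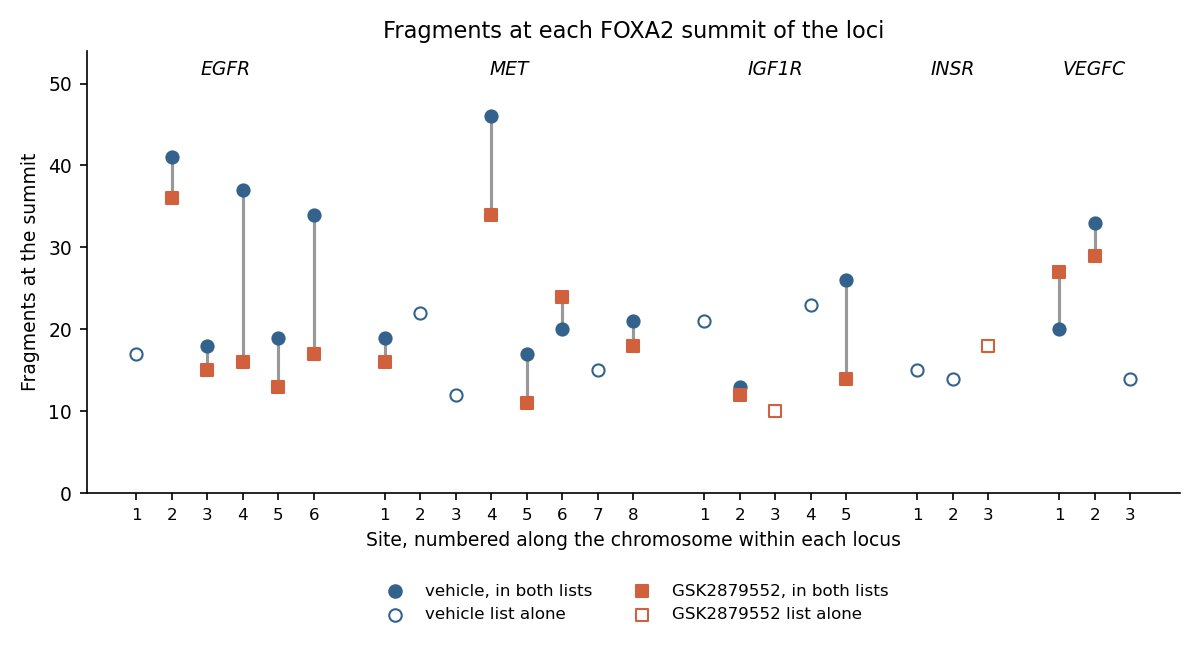
Fragments at the summit (y axis) for each FOXA2 site of the 5 loci with peaks (x axis, sites numbered along the chromosome), as circles for vehicle and squares for GSK2879552. Grey lines join sites called in both lists and open symbols are sites of 1 list. The widest gaps are at *EGFR* sites 4 (37 and 16) and 6 (34 and 17), and *MET* site 6 and *VEGFC* site 1 are the shared sites where GSK2879552 is higher.

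*AXL* and *FGFR2* lacked called sites. The vehicle summits nearest the *AXL* window were 242.9 kb before and 476.7 kb after it, and 1 GSK2879552 summit lay 9.6 kb after it. For *FGFR2* the nearest vehicle summits were 578.7 kb before and 104.1 kb after the window. With 500 kb more on each side there were 3 vehicle peaks around *AXL* and 5 around *FGFR2*, with 6 around *IGF1R*, 7 around *INSR*, 13 around *EGFR*, 16 around *VEGFC* and 25 around *MET*. A count of 0 peaks allows an expected number of up to 3 in a window. Sites too weak to be called are not listed, so these loci are not shown to be unbound. Of the 30 other receptor and ligand loci, 12 also had no vehicle peak.

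Taken over the 7 loci, the shares of sites retained and lowered were near those of the lists as a whole. Of the 23 vehicle peaks, 9 (39.1%, exact 95% binomial interval 19.7 to 61.5) had no overlapping GSK2879552 peak, and the share over all vehicle peaks was 38.0%. Of the 16 GSK2879552 peaks, 2 (12.5%, 1.55 to 38.3) had no overlapping vehicle peak, against 10.8% of all. Among the 14 shared sites, 12 (85.7%, 57.2 to 98.2) had a lower scaled fragment number after GSK2879552, against 83.7% of all pairs. It was at least 1.5-fold lower at 4 (28.6%, 8.39 to 58.1), namely *EGFR* sites 4 and 6, *MET* site 5 and *IGF1R* site 5, against 24.9% of all pairs. None was at least 1.5-fold higher, and 0.826% of all pairs were. Each of these shares is near its background, so none is a result about these genes. With both lists held to a −log10 q of 10 or more, 14 vehicle peaks were left. Of these, 10 (71.4%, 41.9 to 91.6) had no counterpart that also passed, against 44.9% of all vehicle peaks at that threshold. That interval holds the share over all peaks. At *EGFR* sites 3 to 6, *MET* sites 1 and 8 and *IGF1R* site 5 an overlapping GSK2879552 peak existed but lay below the threshold.

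The median log2 ratio over the 14 sites was -0.26, and over all pairs it was -0.32. The summed ratio of 0.773 (0.659 to 0.906) also held the 0.798 of all pairs. Sites called in vehicle alone had 12 to 23 fragments, with a median of 15, whereas shared sites had a vehicle median of 20.5. Over the whole vehicle list these medians were 14 and 24. All 3 member sites in the strongest 10% of the vehicle list by the authors' −log10 p (*EGFR* sites 2 and 4 and *MET* site 4) were shared, as were all 2132 vehicle peaks of that class. The interval was narrower after GSK2879552 at 10 of the 14 sites, against 75.0% of all pairs. The shortest interval called was 175 bp in vehicle and 168 bp in GSK2879552, so widths in the lists are not on quite the same scale. Summits of shared sites were 0 to 94 bp apart, with a median of 19 bp. Local backgrounds at the sites had medians of 1.66 fragments in vehicle and 1.68 in GSK2879552, against 1.68 and 1.71 over the lists, and none exceeded 2.71.

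**Figure D3:**
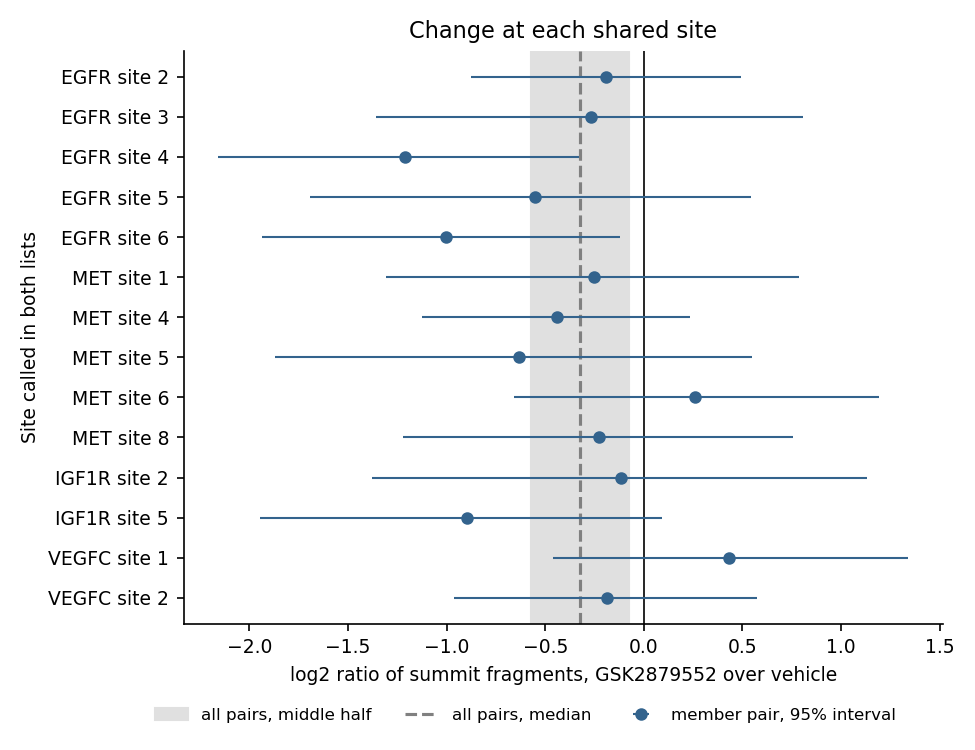
Scaled log2 ratio of summit fragments, GSK2879552 over vehicle (x axis), for each of the 14 shared sites (y axis), with exact 95% intervals that cover counting error only. The dashed line and grey band are the median (-0.32) and interquartile range of all 13200 pairs. The intervals of *EGFR* sites 4 and 6 lie below 0 and the other 12 hold 0.

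The same counts were made at 30 other loci, 19 receptors and 11 ligands, in windows set in the same manner. Vehicle peaks were present at 11 of the 19 receptor loci and 7 of the 11 ligand loci, 58 peaks in all, and 38 GSK2879552 peaks were called there. The number was lower after GSK2879552 at 11 loci, equal at 7 and higher at 1, and 11 had no peak in either list. Of the 58 vehicle peaks 34 (58.6%, 44.9 to 71.4) were overlapped, and the median log2 ratio over their 34 pairs corresponded to a ratio of 0.838. At least 1.5-fold lower fragment numbers were found at 5 of these pairs and higher ones at 0.

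The most vehicle peaks were counted at the long windows of *ERBB4*, a neuregulin receptor related to EGFR, with 10 vehicle and 5 GSK2879552 peaks in 1270 kb, and *ALK*, a receptor of the nervous system, with 9 and 4 in 840 kb. *ROR1*, a receptor for WNT ligands, had 6 and 5. Loci with 4 vehicle peaks were *PDGFRA*, a receptor for platelet-derived growth factor, with 4 after GSK2879552, *MERTK*, a relative of AXL, with 4, the EGFR ligand *EREG* with 1, and *FGF2*, a fibroblast growth factor, with 3. Per length the order differed, with 30.8 vehicle peaks per Mb at *EREG*, 22.2 at *PDGFRA* and at *FGF2*, 10.7 at *ALK* and 7.87 at *ERBB4*. The next loci were chosen for their role after their values were seen. Of the *VEGFC* receptors, *KDR* had 3 peaks in each list, all shared, and *FLT4* had none, counts that do not show the 2 loci to differ. Among the ligands of the receptors described, *HGF* had 1 vehicle peak and no GSK2879552 peak, *GAS6*, *IGF1* and *IGF2* had none, and *EGF* and *HBEGF* had 1 in each list. *TGFA* and *AREG* had 2 in vehicle and 1 in GSK2879552.

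**Figure D4:**
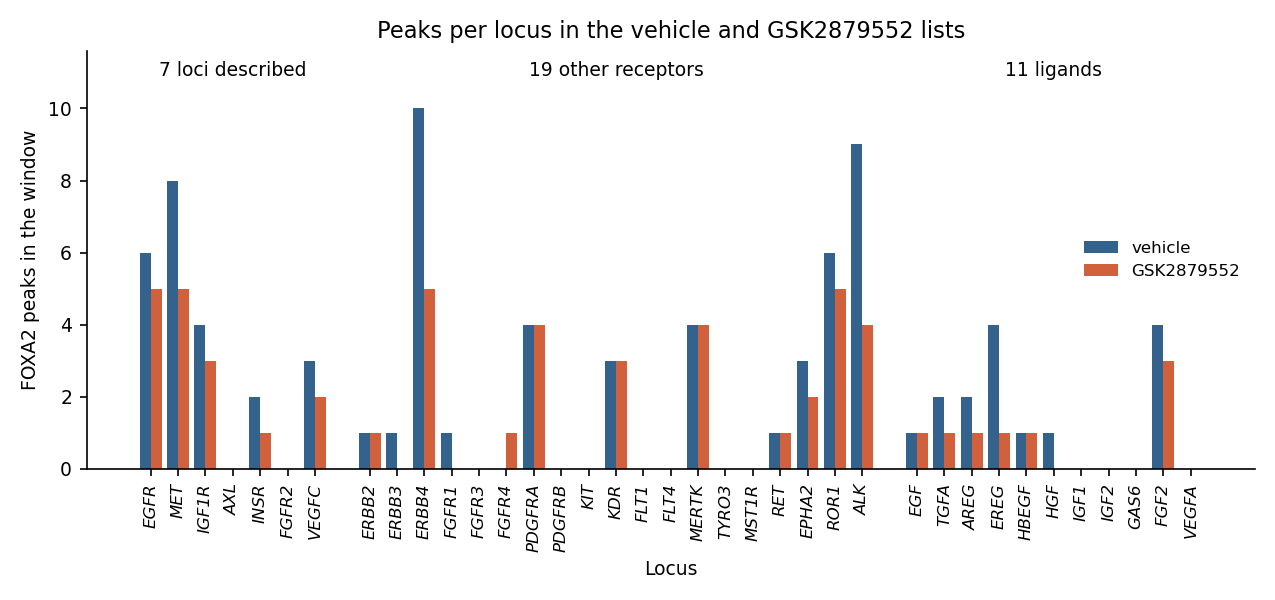
Number of FOXA2 peaks (y axis) per locus (x axis) in the vehicle and GSK2879552 lists, for the 7 loci described, 19 other receptors and 11 ligands. Among the 7 loci *MET* has the most (8 and 5), and *AXL* and *FGFR2* have none.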

How the data were processed

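FOXA2 ChIP-seq of PC3 cells gave 4 samples, 2 lanes per group. Per the labels, the lanes of a group share 1 peak list, so 2 lists were analysed. Sample descriptions name ATAC-seq, but titles and series name FOXA2 ChIP-seq, which was followed. The submitters' processing notes list the tools BWA (0.7.2), SAMtools (0.1.18), MACS2 (2.1.2) and the build hg19. Options, antibody, any control library and duplicate handling are not stated there.

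The authors' deposited values per peak are an interval, a summit, a fold enrichment (the ratio of fragments plus 1 to local background plus 1), a −log10 p-value, a −log10 q-value and a score (10 times the −log10 q-value). Fragments at each summit were recovered as the whole number that gives the deposited p at the deposited fold. A solution to within 0.001 of the deposited value was found for every peak (100%), without a rival at the 7 loci, and the method was tested on simulated data. Peaks overlapping by at least 1 bp were shared (checked with bedtools 2.31.1), and pairs are mutual best partners. Ratios were scaled by 0.998, the quotient of the background floors (1.079 fragments in vehicle, 1.082 in GSK2879552). The floors measure depth only if no control library made the background, which is not known. Intervals are exact binomial ones (Clopper-Pearson for shares, conditional for ratios) and treat fragments as independent molecules.

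Genes, windows and lists were chosen with earlier results of these data known. Windows of the 30 other loci rest on general knowledge of hg19 gene positions, with lengths checked against RefSeq, to which all 7 and 30 symbols matched. All sites at the 7 loci are named, and of the other loci the 5 with the most vehicle peaks, with ties. Alternatives were stricter thresholds, other overlap rules, narrower and wider windows, fragments above background and no scaling.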

Additional observations from a re-analysis of the deposited data

How the results depend on the processing

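With a −log10 q of at least 10 required of both lists, 14 of the 23 vehicle peaks and 5 of the 16 GSK2879552 peaks at the loci were left, and 28.6% (8.39 to 58.1) of vehicle peaks were overlapped instead of 60.9% (38.5 to 80.3). A stricter threshold by construction leaves fewer peaks. *EGFR* sites 3 to 6, *MET* sites 1 and 8 and *IGF1R* site 5 passed it in vehicle. Their overlapping GSK2879552 peaks, at a −log10 q of 5.59 to 9.58, did not pass. *MET* site 2 and *IGF1R* sites 1 and 4 had no overlapping GSK2879552 peak at all. Why the −log10 q was lower at the former sites was not tested. No other alternative run moved a count by over 1.5 times or a share out of its interval. The median log2 ratio over shared sites was negative under each of its 7 alternatives, from -0.35 with 50 kb less on each side to -0.19 for the 4 sites at a −log10 q of at least 10. Lanes could not be left out, because a list pools its lanes. No paired analysis was possible because only 1 list exists per group. With 10 to 46 fragments per summit, the 2 sites whose interval lay below 1 were those with at least 2-fold lower fragment numbers.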
